A study of Mus musculus with 15 samples.

Results

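Accessibility was described at 9 genes that shape the skeleton and the junctions of epithelial cells: the keratin genes Krt7, Krt8, Krt18, Krt19 and Krt20, the vimentin gene Vim, and the desmosome genes Dsp, Dsg2 and Pkp3. The genes were chosen by name, and their regions by position alone: every merged ATAC-seq peak that overlapped a gene body or lay within 10 kb of it was taken. This gave 43 of the 67945 peaks in the count table. Of these, 17 overlapped the gene body and 26 lay beside it, and none lay in the windows of 2 of the genes. A further protein-coding gene was overlapped by 7 of the peaks: Krt78 at Krt8, Snrnp48 at Dsp, and B4galnt4 or Sigirr at Pkp3.

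ATAC-seq reads out open chromatin as the number of reads left where a transposase could cut into the DNA. The libraries came from tumour cells sorted out of pancreatic tumours that had been grown under the skin of untreated C57BL/6 mice for 3 weeks, with 50000 cells per sample, and each library stands for 1 tumour cell clone. The 6 T cell high clones, whose tumours are labelled as rich in T cells, were 7160c2, 6620c1, 6555c3, 6499c4, 6421c2 and 2838c3. The 7 with T cell low tumours were 6694c2, 6556c3, 6499c3, 6422c1, 6419c5, 6419c1 and 2699c4, and 2 clones labelled T cell intermediate are not analysed here. The genotype of the parental tumours and the marker used for sorting are not stated in the sources used here. A library pools many cells, so fewer cells with a region open and less opening per cell cannot be told apart.

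Keratins are intermediate filament proteins that assemble as pairs of a type II and a type I chain. Simple epithelia such as pancreatic ducts build their filaments mainly from Krt8 with Krt18, joined in duct cells by Krt7 and Krt19, whereas Krt20 is best known from the lining of the gut. Vimentin is the filament protein of mesenchymal cells and is used as a marker of carcinoma cells that have taken on mesenchymal traits. Desmosomes tie keratin filaments of neighbouring cells together: Dsg2 is a cadherin that spans the membrane, Pkp3 a plaque protein, and Dsp the linker that holds the filaments.

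A transcription start was listed for 6 of the genes (Krt7, Krt8, Krt18, Krt20, Vim and Dsp), and a peak lay over it in all 6. The 250 bases before each start lay wholly inside that peak. The sequences are credited to RefSeq, build GRCm38.p6, the assembly that mm10 represents, and are written 5′ to 3′ on the strand of the gene. Those of 4 genes whose start peak was the strongest peak of the gene are shown. The Krt20 window (48% GC) is not shown, although its start peak was also the strongest of its gene. The windows shown are those of Krt7 (chr15:101412153-101412402, plus strand), Dsp (chr13:38151044-38151293, plus strand), Krt8 (chr15:102004343-102004592, minus strand) and Vim (chr2:13574061-13574310, plus strand). Capitals mark matches, on either strand, to a GC box (GGGCGG), to an E-box of the kind bound by ZEB and SNAI repressors (CACCTG) or to a TATA box (TATAAA).
Krt7: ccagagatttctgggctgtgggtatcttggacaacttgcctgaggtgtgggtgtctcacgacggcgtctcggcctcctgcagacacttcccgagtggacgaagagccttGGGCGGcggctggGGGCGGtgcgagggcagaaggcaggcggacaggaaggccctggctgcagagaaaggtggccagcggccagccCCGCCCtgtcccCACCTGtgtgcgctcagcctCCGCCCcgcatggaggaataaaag
Dsp: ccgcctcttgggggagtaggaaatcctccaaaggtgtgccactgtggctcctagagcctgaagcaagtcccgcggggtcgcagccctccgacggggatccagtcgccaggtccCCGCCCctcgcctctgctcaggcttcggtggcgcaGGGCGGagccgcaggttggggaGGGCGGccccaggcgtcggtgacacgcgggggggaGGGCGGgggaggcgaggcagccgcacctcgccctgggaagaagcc
Krt8: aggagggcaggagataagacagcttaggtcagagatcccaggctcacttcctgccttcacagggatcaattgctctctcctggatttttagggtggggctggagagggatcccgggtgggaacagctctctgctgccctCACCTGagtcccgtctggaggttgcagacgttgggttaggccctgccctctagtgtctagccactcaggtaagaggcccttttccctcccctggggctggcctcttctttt
Vim: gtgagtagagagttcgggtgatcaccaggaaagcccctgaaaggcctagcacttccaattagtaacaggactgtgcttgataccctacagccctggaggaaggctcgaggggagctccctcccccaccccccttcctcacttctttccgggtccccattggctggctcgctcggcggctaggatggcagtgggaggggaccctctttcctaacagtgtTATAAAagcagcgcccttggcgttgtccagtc

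The Krt7 and Dsp windows were rich in C and G, with 66% and 72.4% GC and with 16 and 22 CG dinucleotides. The Krt8 and Vim windows had 58% and 58.4% GC and held 3 and 8 CG dinucleotides, beside medians of 52.4% GC and 6 CG over all 32851 promoter windows of the table. Each of the Krt7 and Dsp windows held 4 GC boxes, a motif found in 32.7% of all windows. The E-box was present in the windows of Krt7, Krt8 and Krt18, and in 17.2% of all windows. A TATA box began at base -32 from the start in the Vim window and at -29 in the Krt20 window, and was found in 12.4% of all windows. The Krt20 window also had 3 matches to the TEAD motif GGAATG, of which a pair overlap by 1 base; 12.6% of all windows held that motif. No match to the AP-1 motif TGANTCA (6.75% of all windows) or to the GRHL motif AACCGG (5.62%) was found in the 6 windows. A match is a string of letters, and binding was not measured.

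Total counts in peaks ran from 968296 in 7160c2 to 7369228 in 6419c1, and the next to shallowest library was 6556c3 with 1030616. The median Spearman correlation of a library with the others over peaks was lowest in 7160c2 (0.656), 6556c3 (0.671) and 2838c3 (0.687), and highest in 6422c1 (0.75). Peaks within 1 kb of a gene end were found at 6 of 6 tumour epithelium markers, 6 of 10 leukocyte, 2 of 9 fibroblast, 1 of 8 endothelial, 3 of 8 skin keratinocyte and 3 of 7 skeletal muscle markers. None was found at the T cell gene Cd3e, the macrophage gene Csf1r, the fibroblast genes Col1a2, Dcn and Pdgfra, the endothelial genes Pecam1 and Cdh5, or the basal keratinocyte genes Krt5, Krt14 and Trp63. Peaks did lie at leukocyte genes such as Ptprc, Cd53 (up to 66 CPM), Itgb2 (up to 32.7 CPM) and Cd79a, and at the fibroblast genes Col1a1 (up to 37.9 CPM) and Postn. Others lay at the keratinocyte genes Lor (up to 43.9 CPM), Ivl (up to 21.7 CPM) and Krt10 (up to 18.9 CPM). Muscle genes with a peak were Ckm, Tnnt3 and Mylpf, the last with 65.3 to 125 CPM. The summed CPM (reads scaled to the TMM-adjusted library size) of the epithelial markers was 57.2 to 203 in T cell high and 77.5 to 103 in T cell low clones, and that of the leukocyte markers 35.1 to 94.6 in T cell high and 69.2 to 118 in T cell low clones. The ranges were 22.5 to 43.9 against 26.1 to 42.5 for fibroblast, 1.06 to 88.5 against 2.86 to 43.1 for endothelial, 32.3 to 51.1 against 28.4 to 65.6 for keratinocyte and 80.8 to 143 against 83.1 to 139 for muscle markers, T cell high against T cell low in each case. The endothelial range is that of Sox17 alone, with 1.06 CPM in 2838c3 and 88.5 CPM in 6421c2, both T cell high clones. The part of other cell types in the levels below was not tested.

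The design asks where the chromatin of tumour cells differs between tumours rich and poor in T cells. At these 9 genes no difference between the groups passed the test, at single peaks or over the summed peaks of a gene. None of the 41 peaks with enough reads to be tested had an adjusted p under 0.05 (edgeR's quasi-likelihood test with Benjamini-Hochberg adjustment over all peaks), beside 0% of all 59252 tested peaks. The smallest adjusted p of these peaks was 0.585. DESeq2, which called 46 peaks of the whole table, and limma-voom, which called 0, also called 0 of the peaks at these genes. An unadjusted p under 0.05 was reached by 4 of the 41 peaks (9.76%), against 6.83% of all tested peaks. Without 2838c3, 0 of 41 passed the adjusted threshold, beside 0.0706% of all peaks tested, and 3 had an unadjusted p under 0.05, beside 10.7%. Of the 4 peaks with all clones, 2 were higher in T cell high clones, as were 3.86% of all tested peaks, and 2 were lower, as were 2.96%. The estimated log2 fold changes of T cell high over T cell low ran from -1.01 (SE 0.48) to 0.94 (SE 0.41). The largest estimate was thus 2.02-fold, and with these SEs larger differences are not excluded. They were above 0 at 26 peaks and below 0 at 15, with a median of 0.14 beside 0.01 for all tested peaks. The CPM ranges of the 2 groups did not overlap at 2 of the 41 peaks, 1 at Krt7 and 1 at Pkp3, while this held for 0.162% of all tested peaks. A Krt20 peak (chr11:99441262-99441490) and a Dsp peak (chr13:38145055-38145570) had too few reads to be tested.

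**Figure D1:**
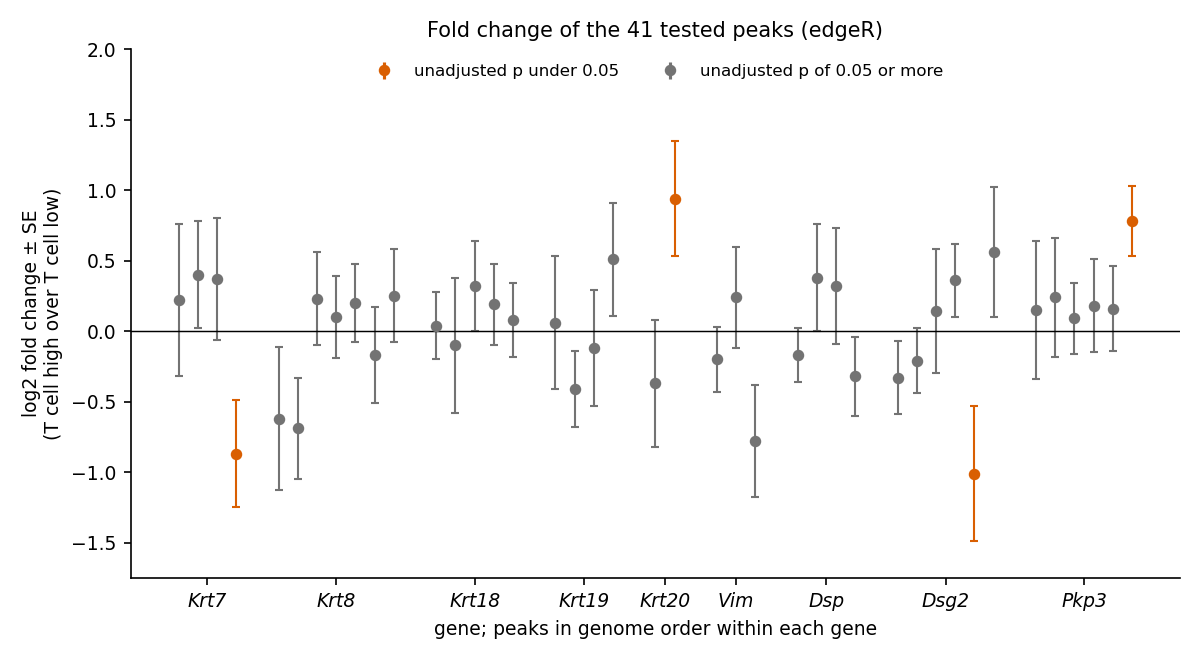
Log2 fold change of T cell high over T cell low clones at the 41 tested peaks, grouped by gene along the horizontal axis, with the standard error from edgeR as bars. Values run from -1.01 at a peak in Dsg2 to 0.94 upstream of Krt20, and the 4 orange points are those with an unadjusted p under 0.05.

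Summed over the peaks of a gene, the same test gave 0 of 9 genes with an adjusted p under 0.05, beside 0.0188% of all 15960 genes tested, and 0 of 9 with an unadjusted p under 0.05, beside 6.44% of all genes. Unadjusted p-values of the 9 genes lay between 0.126 and 0.922, and the smallest adjusted p was 0.796 (Pkp3). DESeq2 and limma-voom also called 0 of the 9. Log2 fold changes were above 0 at 4 genes and below 0 at 5, with a median of -0.02 beside -0.04 for all genes. Per kb of peak, Vim had the highest mean level (42.4 ± 12.4 CPM per kb, SD, n = 13), ahead of Dsg2 at 30.6 ± 5.56. Krt18, Krt19 and Krt8 followed with 21.6 ± 4.26, 21 ± 6.97 and 20.4 ± 2.94 CPM per kb. Dsp at 16.7 ± 2.98, Pkp3 at 14.1 ± 3.02 and Krt7 at 13.2 ± 5.2 came next, and Krt20 was lowest with 8.62 ± 2.79 CPM per kb. In this order, the mean ± SD of each gene overlapped that of its neighbour.

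**Figure D2:**
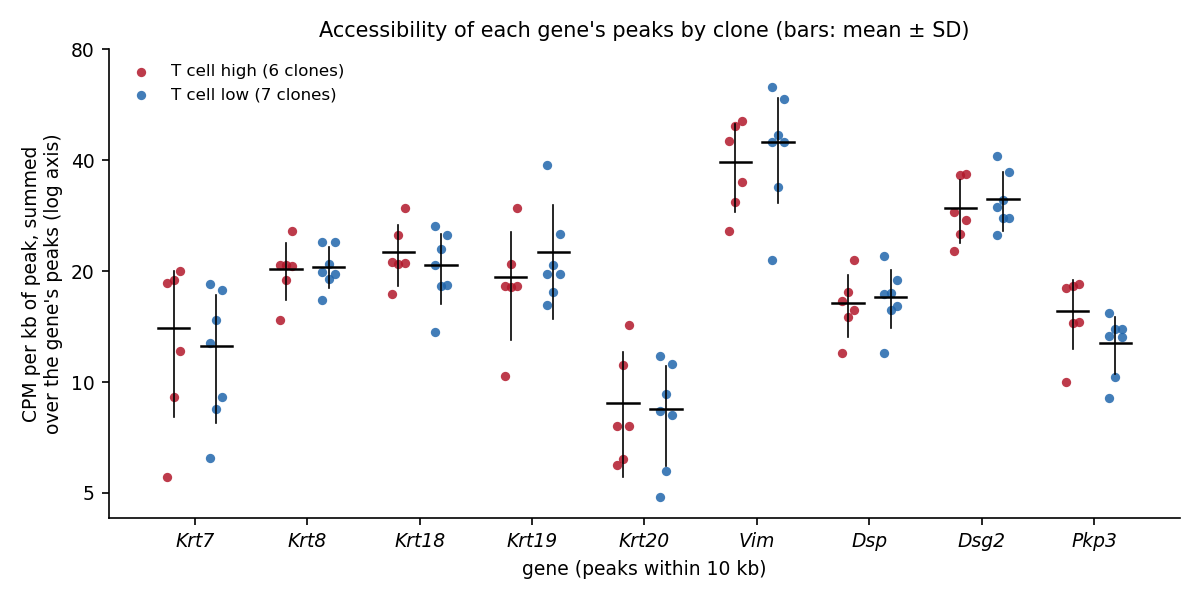
CPM per kb of peak, summed over all peaks within 10 kb of each gene, on a log axis, with 1 point per clone, T cell high in red and T cell low in blue, and bars for the mean and SD of each group. The groups overlap at all 9 genes; means over the 13 clones run from 8.62 CPM per kb at Krt20 to 42.4 at Vim.

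The genes differed in how much they varied from clone to clone. The sum of the 7 peaks of Krt8, the type II keratin of simple epithelia, had an SD of log2 CPM over the 13 clones of 0.21, and 3.36% of all tested genes had a smaller one. Its start peak alone had an SD of 0.60, above that of 42.1% of all tested peaks, and a 4.76-fold range. Dsg2 and Dsp, both with an SD of 0.26, and Krt18 with 0.29 also stood in the lower part of all genes. Krt7 varied most, with an SD of 0.63, above that of 85.2% of all tested genes, and its highest clone had 3.63 times the CPM of its lowest. For single peaks the median SD was 0.54 at the tested peaks of these genes and 0.66 over all tested peaks. The median level was 17.7 CPM per kb at the tested peaks of these genes and 13.3 over all tested peaks, and the SDs were not compared at matched levels.

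Krt7, the type II keratin of ducts, had 4 peaks on chromosome 15. The strongest lay over the start (chr15:101411830-101412810). Its CPM had a lowest, median and highest value of 4.5, 22.4 and 32.7 in T cell high clones, against 6.8, 11.8 and 27.5 in T cell low clones. The lowest value of all was that of the T cell high clone 2838c3, from 17 reads, and the highest that of the T cell high clone 6555c3, so the groups overlapped over nearly the whole range. Group means, here and below with the SD over the clones of the group, were 20.7 ± 9.86 CPM over 6 T cell high clones and 15.4 ± 7.83 CPM over 7 T cell low clones, and the log2 fold change was 0.40 (SE 0.38, edgeR adjusted p = 0.881). The summed Krt7 peaks had 15.9, 44.2 and 57.7 CPM (lowest, median, highest) in T cell high and 17.9, 36.8 and 53.3 CPM in T cell low clones. The 3 clones 6499c4, 6555c3 and 6421c2 were the highest of all 13, and the T cell low clone 6694c2 was next to lowest after 2838c3.

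Krt8 had 7 peaks, and the strongest lay over its start (chr15:102004157-102004815), the region of the sequence shown above. Its CPM was 16.7, 28.7 and 32.8 (lowest, median, highest) in T cell high and 7.47, 27.8 and 35.5 in T cell low clones. The lowest value, in 6556c3, came from 8 reads, and 10 of the other clones had at least 51 reads there. Means were 26.4 ± 5.76 CPM over 6 T cell high clones and 24.1 ± 10.5 CPM over 7 T cell low clones, and the log2 fold change was 0.10 (SE 0.29, edgeR adjusted p = 0.97). The 7 peaks together had 67.2, 94.4 and 117 CPM in T cell high and 76, 90.7 and 109 CPM in T cell low clones. Only 2838c3, with 67.2 CPM, stood below 76 CPM, and the highest level was that of the T cell high clone 6421c2. The log2 fold change of this sum was -0.02 with a 95% interval of -0.37 to 0.32, and its sign depended on the clones and peaks included. The pair of peaks on the side of Krt78, of which the weaker had 0 reads in 6419c5 and at most 32 in a library, had log2 fold changes of -0.62 (SE 0.51) and -0.69 (SE 0.36), with edgeR adjusted p of 0.852 and 0.75.

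Krt18, the type I partner of Krt8, is its neighbour on chromosome 15, and 5 peaks lay in its window. The strongest was not at its start but between the genes (chr15:102017637-102018409), 9807 bp from the Krt18 gene body, and its 46 CPM per kb were above those of 95.4% of all peaks. CPM in this peak was 24.9, 33.1 and 55.8 (lowest, median, highest) in T cell high and 25.3, 33.1 and 59.7 in T cell low clones. In each group 1 clone stood well above the rest, 7160c2 among T cell high and 6499c3 among T cell low clones. Means were 36.4 ± 11.3 CPM over 6 T cell high clones and 34.9 ± 11.6 CPM over 7 T cell low clones (log2 fold change 0.04, SE 0.24, edgeR adjusted p = 0.987). The peak over the Krt18 start (chr15:102027955-102028513) averaged 15.3 ± 3.22 CPM over 6 T cell high clones and 13.4 ± 3.91 CPM over 7 T cell low clones, and the log2 fold change was 0.19 (SE 0.29, edgeR adjusted p = 0.937). The summed Krt18 peaks had 69.3, 84 and 118 CPM in T cell high and 54.4, 82.9 and 106 CPM in T cell low clones. The T cell high clone 7160c2 was the highest of all and the T cell low clone 6419c5 the lowest.

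**Figure D3:**
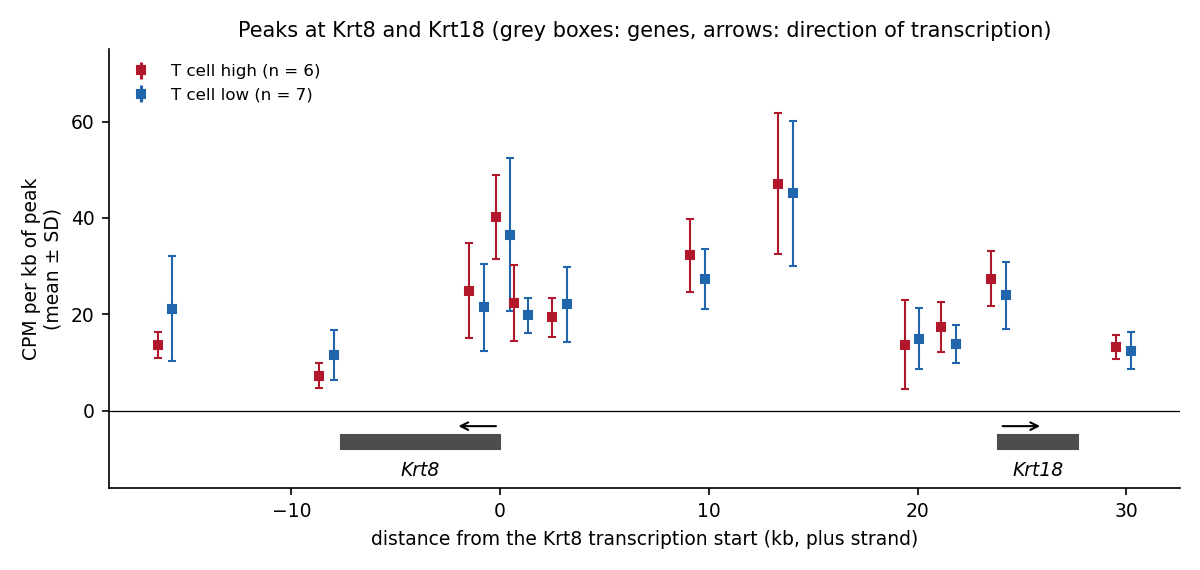
Mean ± SD of CPM per kb for the 12 peaks in the Krt8 and Krt18 windows against their distance in kb from the Krt8 start, T cell high in red left of T cell low in blue at each peak. The peak between the genes is the highest in both groups, and the group means lie within 1 SD of each other at the start peaks of both genes.

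Krt19, a type I keratin of ducts, had 4 peaks on chromosome 11, of which the strongest reached over one end of the gene (chr11:100144950-100146515). Its CPM was 19.3, 35.2 and 55.6 (lowest, median, highest) in T cell high and 29.2, 41 and 89.5 in T cell low clones. The lowest value was that of the T cell high clone 2838c3 and the highest that of the T cell low clone 6499c3. Means were 35.6 ± 12.1 CPM over 6 T cell high clones and 47.2 ± 21.2 CPM over 7 T cell low clones, and the log2 fold change was -0.41 (SE 0.27, edgeR adjusted p = 0.814). It was -0.18 without 6499c3, -0.19 with regional offsets, and -0.59 without 6499c4 (unadjusted p = 0.0474 by edgeR). The 4 peaks together had 31.2, 54.9 and 89.4 CPM in T cell high and 48.6, 59.3 and 117 CPM in T cell low clones, and both 6499c4 and 6499c3, clones with the same parental number, were the highest of their group. The log2 fold change of the sum was -0.22 (SE 0.23), -0.04 without 6499c3 and -0.0019 with regional offsets.

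Krt20 was the least accessible of the 9 genes, with 3 peaks on chromosome 11. The peak over its start (chr11:99437746-99438593) had 2.15, 6.94 and 13 CPM (lowest, median, highest) in T cell high and 2.72, 9.42 and 14.3 CPM in T cell low clones. Read numbers there were small, 5 in 6555c3 and 8 in 6422c1 and in 6694c2. Means were 7.35 ± 4.37 CPM over 6 T cell high clones and 9.31 ± 4.44 CPM over 7 T cell low clones (log2 fold change -0.37, SE 0.45, edgeR adjusted p = 0.911). The summed peaks had 10.8, 13.8 and 25.9 CPM in T cell high and 8.83, 15.1 and 21.4 CPM in T cell low clones, highest in 7160c2 and lowest in 6422c1.

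Vim had the strongest single peak of the set, over its start (chr2:13573232-13574716), with 63 CPM per kb, above 98.3% of all peaks. Its CPM was 49.9, 86.9 and 118 (lowest, median, highest) in T cell high and 48.5, 101 and 139 in T cell low clones. The lowest values of both groups were those of the shallowest libraries, 7160c2 with 50 reads and 6556c3 with 52 reads. The highest were 2838c3 among T cell high and 6499c3 among T cell low clones. Means were 86.6 ± 27.2 CPM over 6 T cell high clones and 99.6 ± 30.7 CPM over 7 T cell low clones, and the log2 fold change was -0.20 (SE 0.23, edgeR adjusted p = 0.901). All Vim peaks together had 64.8, 101 and 129 CPM in T cell high and 54.1, 113 and 159 CPM in T cell low clones. The log2 fold change of the sum was -0.18 with a 95% interval of -0.66 to 0.29. A weak peak beyond the gene end (chr2:13583478-13584157), with 4 reads each in 6620c1, 7160c2, 6556c3 and 6694c2, had 3.11 ± 0.801 CPM over 6 T cell high clones and 5.18 ± 1.5 CPM over 7 T cell low clones, and the log2 fold change was -0.78 (SE 0.40, unadjusted p = 0.0636 and adjusted p = 0.747 by edgeR). With regional offsets the log2 fold change of this peak was -0.83 (unadjusted p = 0.0478 by edgeR).

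Clone 2838c3 had low values at most keratin genes and a high one at Vim. Its summed CPM was the lowest of the 13 clones at Krt7 (15.9), Krt8 (67.2) and Krt19 (31.2), next to lowest at Krt18 (69.3), and at rank 11 of 13 from the bottom at Vim (129), while at Krt20 it ranked 5 (13.8). The regional level, the median log2 CPM of the other peaks within 5 Mb relative to the other clones, was 0.36 at Vim in 2838c3, the highest of all clones, and -0.05, -0.07, -0.09, -0.20 and -0.23 at Krt7, Krt8, Krt18, Krt19 and Krt20; its part in these ranks was not tested. Its Epcam peak, at the gene of an epithelial adhesion molecule, had 8.2 CPM, whereas the other T cell high clones had 26.3 to 93.1. A similar order was seen in the T cell low clone 2699c4, with ranks 3, 4, 3 and 2 at Krt7, Krt8, Krt18 and Krt20. That clone ranked 12 at Vim (148 CPM), but also 11 at Krt19. The T cell low clone 6499c3 was highest at Krt19, Vim and Dsp, with 117, 159 and 107 CPM, and had a mean rank of 11.2 over the 9 genes. Its Epcam peak had 8.04 CPM, the lowest of all, and its peak at Cdh1, the E-cadherin gene, 35.5 CPM, the highest of all. The T cell high clone 7160c2, the shallowest library, was highest at Krt18, Krt20 and Pkp3 and lowest at Dsg2. These clones were singled out after their values were seen.

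Dsp, the desmoplakin gene, had 5 peaks on chromosome 13, and the strongest covered its start (chr13:38150881-38153023). Its CPM was 29.4, 40.6 and 48.4 (lowest, median, highest) in T cell high and 34.1, 41.4 and 65 in T cell low clones. Apart from 6499c3 at 65 CPM, the clones lay close together: 2.18% of all tested peaks had a smaller SD of log2 CPM. Means were 39.6 ± 6.72 CPM over 6 T cell high clones and 44.5 ± 10 CPM over 7 T cell low clones (log2 fold change -0.17, SE 0.19, edgeR adjusted p = 0.899). The summed peaks had 58.3, 78.4 and 104 CPM in T cell high and 58.3, 84 and 107 CPM in T cell low clones.

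Dsg2, the desmoglein of simple epithelia, had 6 peaks on chromosome 18. The strongest lay 3123 bp outside the gene (chr18:20554035-20554951), and its 62.9 CPM per kb nearly matched the Vim start peak. Its CPM was 31.9, 55.9 and 72.5 (lowest, median, highest) in T cell high and 31.7, 63 and 86.3 in T cell low clones, again with 7160c2 and 6556c3 lowest in their groups. Means were 53.2 ± 16.3 CPM over 6 T cell high clones and 61.5 ± 17.1 CPM over 7 T cell low clones (log2 fold change -0.21, SE 0.23, edgeR adjusted p = 0.898). The peak over the nearer end of the gene (chr18:20557741-20558687) averaged 32.5 ± 9.04 CPM over 6 T cell high clones and 25.4 ± 9.08 CPM over 7 T cell low clones, and the log2 fold change was 0.36 (SE 0.26, edgeR adjusted p = 0.833). All peaks together had 99.7, 124 and 161 CPM in T cell high and 110.1, 131 and 180.1 CPM in T cell low clones.

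Pkp3, which encodes the plaque protein plakophilin 3, had 6 peaks on chromosome 7. The strongest lay within the gene (chr7:141078950-141080587) and had 14.3, 27.9 and 40 CPM (lowest, median, highest) in T cell high and 17.1, 28.4 and 31.9 CPM in T cell low clones. Means were 28.1 ± 8.5 CPM over 6 T cell high clones and 26.2 ± 5.87 CPM over 7 T cell low clones (log2 fold change 0.09, SE 0.25, edgeR adjusted p = 0.969). The summed peaks had 56.1, 91.1 and 103 CPM in T cell high and 50.8, 74.4 and 86.3 CPM in T cell low clones. The log2 fold change of 0.28 (SE 0.18, 95% interval -0.11 to 0.67) lay farther from 0 than the other sums with the 10 kb window, and 3 of the 6 T cell high clones lay above the highest T cell low clone. It was 0.12 with the peaks of the gene body alone and with each peak given to its nearest gene (unadjusted p = 0.601 and 0.602 by edgeR), and 0.04 with a 50 kb window (unadjusted p = 0.788).

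The 4 peaks with an unadjusted p under 0.05 were weak or lay in another gene. The peak with the smallest p was in the Pkp3 window but inside the record of Sigirr, an inhibitory receptor of the interleukin-1 receptor family (chr7:141096580-141097555, 6069 bp from Pkp3). Its CPM was 18.3, 19.9 and 27.9 (lowest, median, highest) in T cell high and 10.1, 11.4 and 16.1 in T cell low clones, so every T cell high clone lay above every T cell low clone. Means were 21.5 ± 3.66 CPM over 6 T cell high clones and 12.5 ± 2.21 CPM over 7 T cell low clones, and the log2 fold change was 0.78 (SE 0.25, unadjusted p = 0.005 and adjusted p = 0.585 by edgeR). The groups did not overlap either at a Krt7 peak near the far end of the gene (chr15:101426247-101426867). It had 1.73, 4.69 and 4.99 CPM in T cell high and 5.5, 7.42 and 11.2 CPM in T cell low clones, from 4 to 52 reads a library. Its log2 fold change was -0.87 (SE 0.38, unadjusted p = 0.0328 and adjusted p = 0.711 by edgeR), opposite in sign to the 0.40 of the Krt7 start peak.

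Upstream of Krt20, a peak at chr11:99439133-99439870 had 3.45, 7.07 and 12 CPM in T cell high and 1.74, 3.4 and 6.7 CPM in T cell low clones, and the groups overlapped. Means were 7.38 ± 2.84 CPM over 6 T cell high clones and 3.68 ± 1.59 CPM over 7 T cell low clones (log2 fold change 0.94, SE 0.41, unadjusted p = 0.0309 and adjusted p = 0.709 by edgeR), and in 6556c3 and 6694c2 it rested on 4 reads each. The start peak of the same gene had a log2 fold change of -0.37. The fourth peak lay within Dsg2 (chr18:20566470-20567242), with 1.29, 2.52 and 7.98 CPM in T cell high and 3.3, 8.28 and 10.3 CPM in T cell low clones. Read numbers ran from 3 to 58. Here too the groups overlapped, and the log2 fold change was -1.01 (SE 0.48, unadjusted p = 0.0449 and adjusted p = 0.726 by edgeR). Without the shallow libraries 7160c2 and 6556c3, the Krt7 and Krt20 peaks, with log2 fold changes of -0.82 and 0.78, no longer had an unadjusted p under 0.05, while the Pkp3 window and Dsg2 peaks kept it. The same was lost at the Krt7 peak when any 1 of these was left out: 2838c3, 6620c1, 6499c3 or 6556c3 (unadjusted p up to 0.0738), and at the Krt20 peak when any 1 of these was left out: 6499c4, 6555c3, 7160c2, 2699c4 or 6694c2 (up to 0.0767). At the Dsg2 peak it was lost when any 1 of these was left out: 2838c3, 6421c2, 6555c3, 6620c1, 6419c1, 6422c1, 6556c3 or 6694c2 (up to 0.0928). With 1 library left out, the log2 fold changes ran from -0.95 to -0.73 at Krt7, 0.78 to 1.15 at Krt20 and -1.28 to -0.85 at Dsg2.

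**Figure D4:**
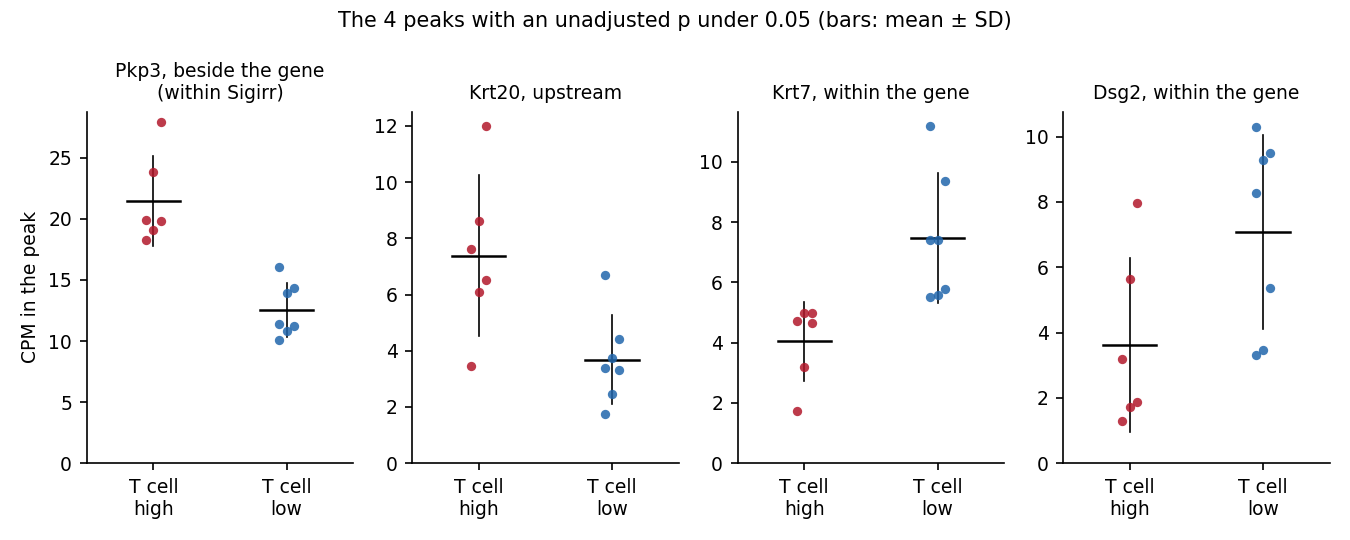
CPM of the 4 peaks with an unadjusted p under 0.05, 1 point per clone, T cell high left of T cell low, with bars for mean and SD and each vertical axis starting at 0. The groups are apart at the Pkp3 window peak (18.3 to 27.9 against 10.1 to 16.1 CPM) and at the Krt7 peak (1.73 to 4.99 against 5.5 to 11.2 CPM), T cell high against T cell low, and overlap at the Krt20 and Dsg2 peaks.

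Whether the genes varied together over clones was asked for 6 pairs, with log2 CPM of the strongest peak of each gene in 13 clones and p-values from 100000 permutations, two-sided and adjusted over the 6 pairs by Benjamini-Hochberg. Krt8 and Krt18, whose proteins pair, had Pearson's r = 0.50 (permutation p = 0.0768, adjusted 0.21) and Spearman's rho = 0.73 (permutation p = 0.00615, adjusted 0.0369). The Krt18 peak used here was the one between the genes (chr15:102017637-102018409), 9807 bp from the Krt18 gene body. The relation of the Krt8 start peak with the Krt18 start peak was not tested. Without 6556c3 and 6694c2, the clones farthest from the median on Krt8, r was 0.55 and rho 0.68, and the adjusted permutation p of rho was 0.102. With libraries scaled by total counts, rho was 0.65 and its adjusted permutation p 0.113. Krt7 and Krt8, both type II, had r = 0.65 (permutation p = 0.013, adjusted 0.078) and rho = 0.65 (permutation p = 0.0199, adjusted 0.0596). Their r was 0.61 without 2838c3 and 6694c2, with an adjusted permutation p of 0.0777, and rho fell to 0.45, with an adjusted permutation p of 0.244. The 3 genes lie in 1 stretch of chromosome 15 and share libraries and depth.

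Across chromosomes no pair passed the adjusted threshold. Krt8 and Krt19 had r = 0.44 and rho = 0.44 (adjusted permutation p 0.21 and 0.269), and r = 0.71 without 6556c3 and 6694c2 (permutation p = 0.014, adjusted 0.0777). For Vim, r was 0.43 with Krt8 and 0.13 with Krt19, with rho of 0.17 and 0.07 (adjusted permutation p of r 0.21 and 0.679, of rho 0.694 and 0.821). Without 6556c3 and 7160c2 the r values were 0.14 and 0.05. With the regional level subtracted, Vim and Krt19 had r = 0.53 and rho = 0.49 (permutation p = 0.062 and 0.0886), and with libraries scaled by total counts their rho was -0.08. Dsp and Pkp3 had r = -0.19 and rho = -0.24 (adjusted permutation p 0.642 and 0.644), and r = -0.47 without 6499c3 and 6620c1.

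**Figure D5:**
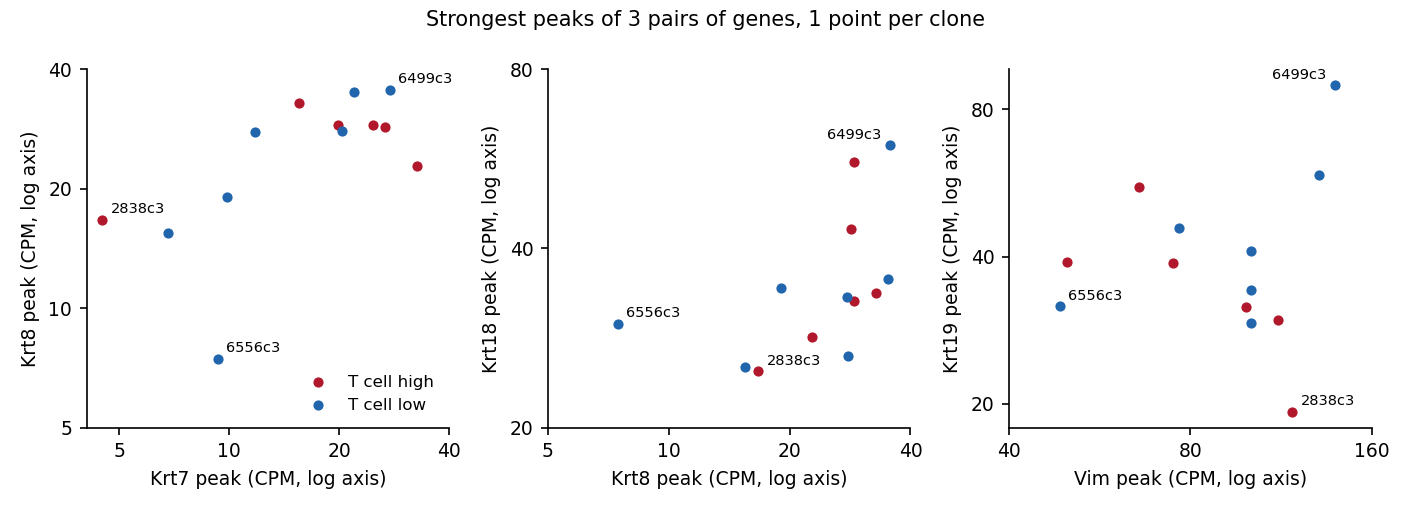
CPM of the strongest peaks of Krt7 and Krt8, Krt8 and Krt18, and Vim and Krt19 on log axes, 1 point per clone, T cell high in red and T cell low in blue, with 3 clones named. The left pair has r = 0.65, the middle pair r = 0.50 and the right pair r = 0.13 over 13 clones. The Krt18 peak is the one between Krt8 and Krt18, not the one over the Krt18 start.

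Clones that share the number before the letter c allow a side-by-side view of 1 library each, with no test. In 6499c4 (T cell high) over 6499c3 (T cell low), the summed CPM had ratios from 0.488 at Vim to 1.37 at Pkp3 and was below 1 at 7 of the 9 genes. Vim had 77.6 CPM in 6499c4 and 159 CPM in 6499c3, Krt19 had 89.4 CPM in 6499c4 and 117 CPM in 6499c3, and Krt7 had 57.7 CPM in 6499c4 and 53.3 CPM in 6499c3. Between 6419c1 and 6419c5, both T cell low, ratios ran from 0.744 at Krt20 to 1.83 at Krt18, where 6419c1 had 99.8 CPM and 6419c5 had 54.4 CPM.

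In the wider families, tested over summed peaks in the same way, no gene passed the adjusted threshold. Of 5 other epithelial keratins, among them Krt4 and Krt13 of the moist stratified linings, 1 had a log2 fold change above 0 and 4 below, with a median of -0.37 beside -0.04 for all genes; Krt4 had -0.54 (SE 0.29), Krt13 -0.37 (SE 0.20) and Krt222 -0.41 (SE 0.32), with edgeR adjusted p from 0.769 to 0.853. Of 9 keratins known mainly from skin, Krt5, Krt6a, Krt6b and Krt1 were not tested, for lack of a peak within 10 kb or of enough reads. The other 5 had a median of -0.03. Krt16 and Krt17 share the same peaks and therefore the same values. Krt15 had a mean of 42 CPM in T cell high and 53.3 CPM in T cell low clones. These equal the added means of the Krt19 peaks chr11:100139307-100140014 (6.39 and 6.11 CPM) and chr11:100144950-100146515 (35.6 and 47.2 CPM). The Krt15 value thus appears to repeat Krt19 peaks, and the median of -0.03 does not rest on 5 independent genes. Of 14 other desmosome genes, 12 were tested (all but Dsc1 and Dsg1a), 5 above 0 and 7 below, with a median of -0.08. The plakophilin gene Pkp2 had -0.34 (SE 0.18, edgeR adjusted p = 0.767), Pkp1 0.26 (SE 0.17, adjusted p = 0.807) and the desmocollin gene Dsc2 0.25 (SE 0.19, adjusted p = 0.845).

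Of 14 other intermediate filament and linker genes, 13 were tested (all but Ina), 2 above 0 and 11 below, with a median of -0.18. Only Prph, which encodes the neuronal filament protein peripherin, had an unadjusted p under 0.05, 1 of the 13 here and 0 in the other 3 lists, beside 6.44% of all genes. Its summed peaks had 9.17 ± 2.38 CPM over 6 T cell high clones and 17.3 ± 4.16 CPM over 7 T cell low clones (log2 fold change -0.92, SE 0.30, unadjusted p = 0.00511 and adjusted p = 0.605 by edgeR). Lmna, the gene of nuclear lamins A and C, had 239 ± 42.1 CPM over 6 T cell high clones and 294 ± 42.6 CPM over 7 T cell low clones, and the log2 fold change was -0.30 (SE 0.14, edgeR adjusted p = 0.767).

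Genes on other chromosomes whose summed peaks ranked the 13 clones most like each member were found by Spearman's rho, as a description of the best among 14664 to 15535 genes. They were Mbnl3 for Krt7 (rho 0.96), Gpr63 for Krt8 (0.93), Nfyb for Krt18 (0.87), Pacs2 for Krt19 (0.87), Tmem39b for Krt20 (0.86), Zfp703 for Vim (0.90), Nisch for Dsp (0.92), Primpol for Dsg2 (0.91) and Trim40 for Pkp3 (0.94). No gene was the best match of more than 1 member.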

How the data were processed

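Deposited by the authors was 1 table of raw counts, whole numbers of reads for each merged peak. Per the file headers it was written by featureCounts 1.5.3 from alignments named as free of duplicates; mm10 and DESeq2 appear in the submitters' processing notes. Neither aligner nor peak caller nor any transposase shift is stated in the sources used here. Both ends of a fragment can be counted, so reads are not independent molecules.

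Gene positions were those of 21883 protein-coding genes in assembly GRCm38.p6. Columns of 13 libraries were matched to samples by clone name. Replicate numbers come from accession order and pair no samples. As every library is another clone, p-values measure the spread between clones.

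The comparison used edgeR 4.0.16 in R 4.3.3: filterByExpr by group kept 59252 peaks, TMM set the library sizes, and glmQLFit with glmQLFTest gave two-sided p-values, adjusted by Benjamini-Hochberg and called at 0.05. Per gene, counts of all peaks within 10 kb were summed for every gene (15960 tested). CPM refers to the TMM-scaled library; log2 CPM used a prior count of 2. The scripts were tested on simulated data. Alternatives were other size factors, total counts, a minimum total count of 10, DESeq2 1.42.0, limma-voom (limma 3.58.1), leaving out each library, the clones 6419c1 and 6419c5 summed, other windows, and offsets for the regional level. The regional level is the median log2 CPM of peaks within 5 Mb with a mean of at least 5 CPM, leaving out the peaks of the gene itself. The fit without both 7160c2 and 6556c3 was chosen after seeing the data. The 9 genes, their named peaks (strongest, nearest to the start, unadjusted p under 0.05), the gene lists and the motifs were chosen with earlier results of these data known.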

Additional observations from a re-analysis of the deposited data

Results flagged for a closer look

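In 2 of the 46 sets of values examined (each gene's sum and each named peak in each group), 1 clone lay far from the rest of its group; chance flags about 1 in 20 such sets. Both were the T cell low clone 6499c3. Its summed Krt19 peaks had 117 CPM, while the other T cell low clones had 48.6 to 75.9 CPM. Its peak between Krt8 and Krt18 (chr15:102017637-102018409) had 59.7 CPM, while the other T cell low clones had 25.3 to 35.5 CPM. The regional level of 6499c3 on the log2 scale was 0.31 at Krt19 and -0.13 at Krt18; its part in these values was not tested.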

How the results depend on the processing

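No peak or gene of the 9 genes passed the adjusted threshold under any alternative run. Counts over all features moved more: 0 peaks were called, but 46 with DESeq2 and 0 to 42 when 1 library was left out, the highest without 2838c3. Of all genes, 3 were called, against 15 with DESeq2, 0 with limma-voom, 1 each with total counts, with 6419c1 and 6419c5 summed, with the gene body alone or with a 50 kb window, and 1 to 11 with 1 library left out, again highest without 2838c3. The Pkp3 sum had an unadjusted p of 0.0359 without 2838c3 and 0.0395 with regional offsets, and its log2 fold change of 0.28 was 0.12 with the gene body alone or by nearest gene and 0.04 with the 50 kb window. The sign of sums near 0 turned: Krt8 to 0.12 with regional offsets, to 0.13 with each peak given to its nearest gene, and -0.11 to 0.05 with 1 library left out; Krt18 to -0.05 with the 50 kb window; Krt20 to -0.37 with the gene body, -0.10 with the 50 kb window, -0.12 without both 7160c2 and 6556c3, and -0.14 to 0.13 with 1 library left out; Dsp to 0.05 with regional offsets and 0.01 by nearest gene; Dsg2 to 0.16 with the gene body. The strongest Krt8 peak turned to -0.07 and the strongest Krt18 peak to -0.14 without both 7160c2 and 6556c3. The Krt18 peak was at -0.03 with limma-voom and -0.02 with 6419c1 and 6419c5 summed. With 1 library left out the strongest peaks ran from -0.04 to 0.21 at Krt8, -0.12 to 0.21 at Krt18 and -0.05 to 0.22 at Pkp3. With the regional level subtracted, r of Krt7 and Krt8 was 0.72 (adjusted permutation p = 0.018) and r of Dsp and Pkp3 turned to 0.51 (adjusted permutation p = 0.104). In that setting rho of Dsp and Pkp3 turned to 0.63 and rho of Krt7 and Krt8 was 0.64 (adjusted permutation p = 0.05 for each). For Krt8 and Krt18 rho was 0.72 (adjusted permutation p = 0.0434). Of the 4 peaks with an unadjusted p under 0.05, the Pkp3 window peak kept it under every alternative, and the others lost it under some. The causes were not tested. With totals as low as 968296, weak peaks rest on few reads. No paired analysis was possible because the replicate numbers follow accession order, and only 1 pair of clones with a shared parental number, 6499c4 and 6499c3, spans the groups.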
